A study of Homo sapiens with 7 samples.

Results

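Genes of the G2 phase, the mitotic spindle and the kinetochore were followed in HUDEP-2 cells. The 34 genes were taken by symbol from a list of genes of known function, drawn up with earlier results of these data known, and all 34 were among the 32738 gene rows of the count table. Of these, 33 were abundant enough to test and 1, CENPA, was not. HUDEP-2 is a human erythroid progenitor line from umbilical cord blood, immortalised with doxycycline-inducible human papillomavirus E6 and E7, and can mature towards red cells in culture. The labels list doxycycline in the expansion medium and not in the differentiation medium. All 7 libraries came from cells that carried lentiviral CRISPR interference, a method that brings a Cas9 without cutting activity to a chosen site by means of a guide RNA to lower transcription there. The cells were then kept for 72 h in erythroid differentiation medium with 3 IU/ml erythropoietin. The controls were 3 libraries whose guide was non-targeting. Guide 1 and guide 2, which had 2 libraries each, were both directed at the TMCC2 locus, upstream of its erythroid form. The labels do not say whether the replicates were separate cultures or whether the cells were a clone, and the p-values here reflect only how far these libraries differ, which may be technical.

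A cell enters mitosis when cyclin B binds the kinase CDK1 and the CDC25 phosphatases switch the pair on. Chromosomes then attach to spindle microtubules through the kinetochore, which is built on centromeric chromatin, and the spindle checkpoint holds back the anaphase-promoting complex until every chromosome is attached. Transcripts of these genes rise in G2 and are low in cells that have left the cycle. In the red cell lineage, erythroblasts go through a limited number of divisions while they fill with haemoglobin, and leave the cycle before the nucleus is expelled.

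Counts per library ran from 9780800 to 11350113. TMCC2, the targeted gene, stood at 832, 839 and 937 CPM (read counts scaled to a common library size by the TMM method) without a targeting guide. Guide 1 gave 229 and 219 CPM, and guide 2 gave 229 and 260 CPM. Its log2 fold change for the mean of both guides was -1.89 (SE 0.09), which matches the labels. The 10 erythroid markers, among them HBB and ALAS2, were all tested and together took 217998 CPM in non-targeting replicate 1 and 246687 to 278026 CPM in the other 6 libraries. Markers of neutrophils and monocytes summed to 1.59 to 4.44 CPM, those of lymphocytes to 0.265 to 1.19 CPM, and those of fibroblasts, stroma and endothelium to 0 to 0.374 CPM. MPO, S100A8, S100A9, CD3E, MS4A1, PF4 and PPBP had 0 counts in each library. Summed markers of megakaryocytes and platelets ran from 166 CPM, in the same library, to 219 CPM without and from 178 to 220 CPM with a guide, and those of mast cells and basophils from 32.6 to 35.9 CPM without and from 31.6 to 42.3 CPM with a guide.

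That control, non-targeting replicate 1, was unlike the rest, and most of the results touch on it. The part of its low erythroid marker sum in these results was not tested. Its genes deviated from their means over the 7 libraries against transcript GC content, with a Spearman rho of -0.69 across genes, while the other libraries ran from -0.31 to 0.42. The mitotic genes are AT-rich: the median GC content of the 33 tested members was 42.8%, against 49.2% for all tested genes, from 35.6% for CDK1 to 57.4% for CDC20. Several results are therefore also given without this library or after a correction for GC content.

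Promoters of 4 members are shown, because CCNB1, CCNB2 and BUB1 are 3 of the 5 members with every guide library below every non-targeting library, and KIF23 had the smallest p of the members with guide 2. Promoters of mitotic genes commonly carry CCAAT boxes, which bind NF-Y, and the CHR element, through which MuvB-based complexes repress these genes in resting cells and activate them in G2. Each line gives the 250 bases before the annotated start, 5′ to 3′ on the gene's strand, from RefSeq with the build GRCh38.p14. Capitals mark TTTGAA (a core sequence of the CHR) and CCAAT, searched on both strands, so that TTCAAA and ATTGG count too. Variants of the CHR were not searched, so a window without TTTGAA may still hold one. The windows are chr5:69166900-69167149 on the plus strand for CCNB1, chr15:59104896-59105145 on the plus strand for CCNB2, chr2:110678064-110678313 on the minus strand for BUB1 and chr15:69414099-69414348 on the plus strand for KIF23.
CCNB1: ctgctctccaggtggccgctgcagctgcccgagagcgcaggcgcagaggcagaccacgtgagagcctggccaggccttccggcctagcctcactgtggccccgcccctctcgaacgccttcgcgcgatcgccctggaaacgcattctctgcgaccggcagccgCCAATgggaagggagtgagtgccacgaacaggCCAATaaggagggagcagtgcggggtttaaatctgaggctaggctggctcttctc
CCNB2: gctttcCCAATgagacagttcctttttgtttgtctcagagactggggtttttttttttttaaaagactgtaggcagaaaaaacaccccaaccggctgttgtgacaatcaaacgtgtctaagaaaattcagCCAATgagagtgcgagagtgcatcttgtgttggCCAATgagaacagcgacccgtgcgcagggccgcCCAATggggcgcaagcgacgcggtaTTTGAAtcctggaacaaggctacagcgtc
BUB1: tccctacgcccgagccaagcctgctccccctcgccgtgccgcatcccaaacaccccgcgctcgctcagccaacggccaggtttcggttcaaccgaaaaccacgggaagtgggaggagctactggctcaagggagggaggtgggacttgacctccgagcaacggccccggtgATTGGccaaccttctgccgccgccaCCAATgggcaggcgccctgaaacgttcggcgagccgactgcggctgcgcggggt
KIF23: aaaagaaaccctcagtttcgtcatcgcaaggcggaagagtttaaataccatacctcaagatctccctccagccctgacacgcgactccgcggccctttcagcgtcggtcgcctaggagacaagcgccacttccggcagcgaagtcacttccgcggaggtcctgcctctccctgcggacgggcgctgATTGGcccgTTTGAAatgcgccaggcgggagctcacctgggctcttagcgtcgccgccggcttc

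CCNB2 had 4 CCAAT boxes, whose first letters lay 244, 120, 87 and 54 bases before the start, and a TTTGAA at 29 bases. CCNB1 had CCAAT boxes at 87 and 55 bases, and BUB1 at 79 and 54 bases, with no TTTGAA in the window. In KIF23 a CCAAT box at 64 bases was followed by a TTTGAA at 55 bases. The promoter table held 27 of the 34 members. In this window, at any of their annotated starts, TTTGAA was found in 15 and CCAAT in 21 of these genes. Counted over starts, 51.5% of the members' held TTTGAA and 72.7% held CCAAT, against 13.3% and 32% of all 35116 starts in the table. NDC80, NUF2, CENPE and KIF2C had neither, so the promoters shown, which all held CCAAT, do not stand for every member. They do not stand for all 5 members without overlap either. CENPH had no entry, and CDC25C had several annotated starts, some of them with neither TTTGAA nor CCAAT. A match of letters is a description and not evidence of binding in these cells.

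The mitotic genes were expressed at moderate levels in these maturing cells. Together they took 745, 660 and 639 CPM without a targeting guide, 606 and 580 CPM with guide 1, and 634 and 566 CPM with guide 2. Non-targeting replicate 1 was the highest, and non-targeting replicate 3 lay only just above guide 2 replicate 1. In means, these are 681 ± 56.1 CPM (SD, n = 3), 593 ± 18.6 CPM (SD, n = 2) and 600 ± 48.0 CPM (SD, n = 2). No test was made of the sum, since the genes were chosen with earlier results known. In bulk RNA, fewer dividing cells and less RNA per dividing cell cannot be told apart.

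Levels between genes were compared per kb of the longest annotated coding transcript. On this scale AURKA (20.7 CPM per kb) and CDC20 (20.3 CPM per kb) were highest, followed by CCNB1 (16.6), CDK1 (15.4), NUSAP1 (14.1), CCNA2 (13.2) and CCNB2 (12.2). The ranges over libraries of these neighbours overlapped. CENPE (0.622 CPM per kb) and CENPF (0.935), the very long kinetochore proteins, and MKI67 (1.48), which encodes the Ki-67 protein used to mark dividing cells, were near the bottom. CENPA, the histone H3 variant that marks centromeres, had 5, 4 and 1 counts in the controls, 0 and 5 in the guide 1 libraries and 2 and 4 in those of guide 2, and no difference was detectable at this depth. Annotated length may not be the length of the transcript that these cells use.

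**Figure D1:**
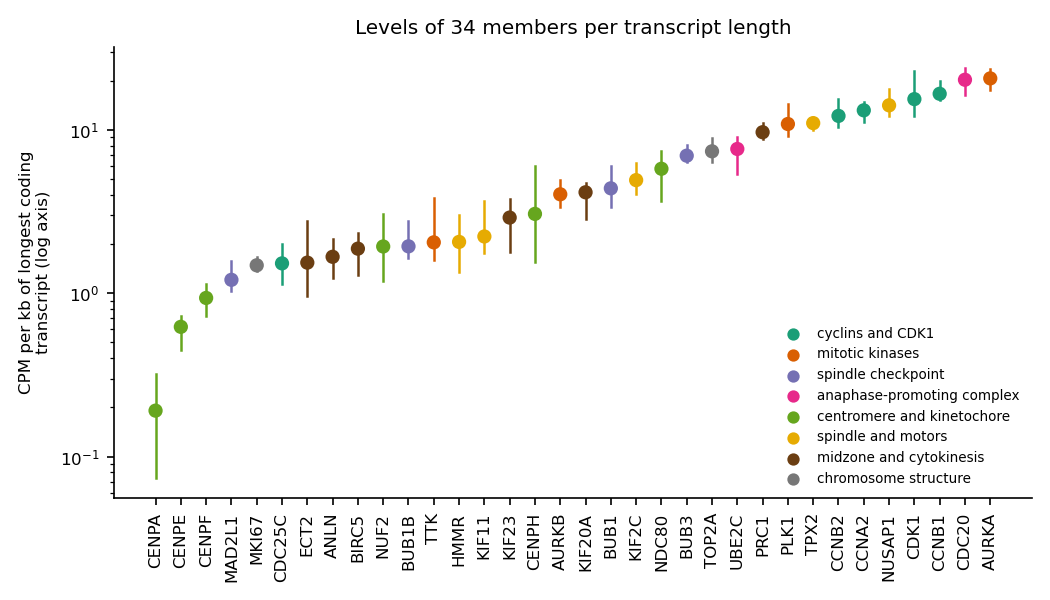
Mean CPM per kb of the longest coding transcript over 7 libraries (vertical log axis) for the 34 members in order of level, coloured by role; lines span the lowest to the highest library, leaving out a library at 0 counts for CENPA. AURKA and CDC20 are highest at 20.7 and 20.3 CPM per kb, and CENPA is lowest at 0.191.

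The first comparison asked how these genes differed between cells with a guide at the TMCC2 region and cells with the non-targeting guide. None of the 33 tested members passed adjustment for the mean of both guides (edgeR's quasi-likelihood test, adjusted over 10212 genes by the Benjamini-Hochberg method), where 0.0196% of all tested genes did, and DESeq2 also called 0. An unadjusted p under 0.05 was reached by 7 members, all lower with a guide: CENPH, CCNB2, NDC80, KIF23, BUB1, CDK1 and CDC25C. That is 21.2% of the members, against 4.19% of all tested genes, of which 2.4% were lower and 1.79% higher. DESeq2 gave 6 members, or 18.2%, at that threshold, against 2.55% of all tested genes. The fold change was below 0 for 31 of 33 members, against 53.9% of all tested genes, and the median was -0.22 on the log2 scale against -0.01 for all tested genes.

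Part of this rested on non-targeting replicate 1. That library had the highest CPM of the 7 for 23 of 33 members, against 29.7% of all tested genes. The median member lay 0.29 above its own mean there on the log2 scale, against 0.05 and 0.04 in non-targeting replicates 2 and 3, -0.06 and -0.13 with guide 1, and 0.01 and -0.16 with guide 2. After the GC correction these 7 medians were 0.13, 0.09, 0.09, 0.00, -0.08, 0.01 and -0.20, and replicate 1 was the highest for 8 of 33 members, against 19.3% of all tested genes. Without non-targeting replicate 1 the median fold change was -0.15, 27 of 33 members were below 0, and 5 members, or 15.2%, reached an unadjusted p under 0.05, against 10.5% of all tested genes. With the GC correction of all 7 libraries the median was -0.19, and 10 members, or 30.3%, reached that threshold, against 8.38% of all tested genes. With both changes the median was -0.18 and 9 members did, against 9.8%. The number of members called was 0 in each case.

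**Figure D2:**
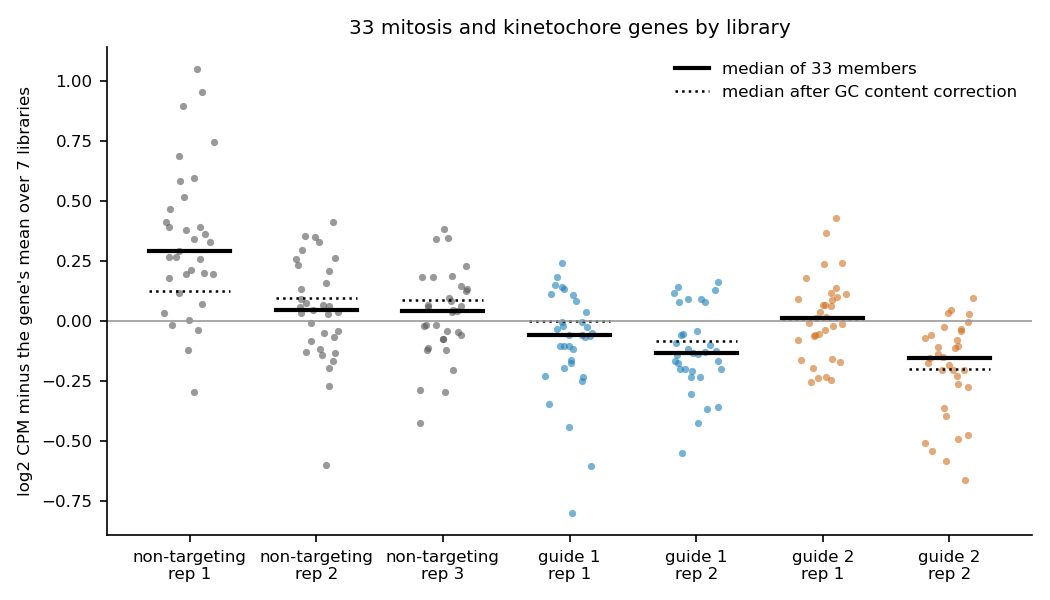
Each point is 1 of 33 tested members in 1 library, as its log2 CPM minus the mean of that gene over the 7 libraries (vertical axis); solid bars are medians and dotted bars are medians after GC content correction. The median is 0.29 in non-targeting replicate 1 and falls to 0.13 with the correction, while guide 2 replicate 2 is lowest at -0.16.

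Every guide library lay below every non-targeting library for 5 of 33 members, CCNB1, CCNB2, CDC25C, BUB1 and CENPH, or 15.2%, against 2.37% of all tested genes. No member showed the opposite order, against 3.03% of all tested genes. In each of the 5, the lowest non-targeting value came from replicate 2 or 3.

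Among the cyclins and their kinase, CCNB2 (cyclin B2) had the smallest p. Its controls stood at 38.9, 31.6 and 35.3 CPM, guide 1 at 26.9 and 27.5 CPM, and guide 2 at 26.9 and 26.1 CPM. The 4 guide libraries lay close together, below all 3 controls. The log2 fold change was -0.39 (SE 0.12, 95% interval -0.64 to -0.14) and did not pass (adjusted p = 0.998, edgeR), in a range of adjusted p from 0.102 to 1.00 over its alternatives. It was -0.31 (SE 0.10) without non-targeting replicate 1 and -0.37 (SE 0.09) with the GC correction.

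CCNB1 (cyclin B1), the main partner of CDK1 at entry to mitosis, stood at 43.2, 39.4 and 35.4 CPM without a guide, at 33.4 and 33.7 CPM with guide 1 and at 33.9 and 33.2 CPM with guide 2. The groups did not overlap, but the lowest control lay near the guide libraries, and the fold change was -0.23 (SE 0.11, 95% interval -0.47 to 0.01). CDK1, the kinase itself, stood at 44.6, 26.9 and 31.5 CPM without a guide, 25.0 and 23.8 CPM with guide 1, and 28.3 and 30.1 CPM with guide 2. Its fold change of -0.36 (SE 0.16) became -0.12 (SE 0.11) without non-targeting replicate 1, since the guide 2 libraries lay within the range of the other 2 controls.

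CDC25C, a phosphatase that activates CDK1, was scarce, at 4.24, 3.33 and 4.09 CPM without a guide, 2.76 and 2.43 CPM with guide 1, and 2.81 and 3.02 CPM with guide 2. These are 26 to 48 counts per library, and the fold change was -0.50 with a wide interval (-0.98 to -0.02). CCNA2 (cyclin A2), which acts in S phase and G2, did not separate the groups, at 41.5, 37.6 and 35.2 CPM without a guide, 39.7 and 31.2 CPM with guide 1, and 38.4 and 34.1 CPM with guide 2. All 5 genes of this group had estimates below 0, from -0.50 to -0.09.

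The mitotic kinases had estimates from -0.49 to -0.21. AURKA, which matures the spindle poles, stood at 52.9, 47.2 and 50.7 CPM without a guide, 39.4 and 41.2 CPM with guide 1, and 45.9 and 47.7 CPM with guide 2. Guide 1 libraries lay below all controls, while guide 2 libraries overlapped them. PLK1, which acts at centrosomes, kinetochores and the midzone, had the other order, at 23.7, 31.9 and 23.2 CPM without a guide, 26.6 and 23.3 CPM with guide 1, and 20.3 and 20.4 CPM with guide 2. AURKB, the kinase that corrects faulty attachments, was at -0.21 (SE 0.19). TTK, which starts checkpoint signalling at kinetochores, was at -0.49 (SE 0.26) with all libraries and at 0.01 without non-targeting replicate 1, where it stood at 14.3 CPM with the next highest library at 7.02 CPM.

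Spindle checkpoint genes had estimates from -0.37 to -0.06. BUB1, a kinase that recruits other checkpoint proteins to kinetochores, stood at 21.5, 17.3 and 15.3 CPM without a guide, 14.4 and 14.1 CPM with guide 1, and 15.2 and 11.99 CPM with guide 2. The margin was small, since non-targeting replicate 3 and guide 2 replicate 1 nearly met, and the fold change of -0.37 (SE 0.15) was -0.23 (SE 0.13) without non-targeting replicate 1. BUB3, the member with the most counts and a gene that dividing and resting cells both use, stood at 63.0, 56.0 and 49.9 CPM without a guide, 52.0 and 52.0 CPM with guide 1, and 54.7 and 53.0 CPM with guide 2. All 4 guide libraries lay inside the range of the controls. BUB1B, which encodes the BUBR1 protein, was at -0.35 (SE 0.19), and MAD2L1, whose product binds and inhibits CDC20, at -0.06 (SE 0.20).

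CDC20, the activator of the anaphase-promoting complex, is GC-rich and was lowest in the library where most members were highest. It stood at 29.1, 42.8 and 39.5 CPM without a guide, 39.4 and 34.4 CPM with guide 1, and 37.4 and 29.4 CPM with guide 2. Its fold change was -0.08 (SE 0.15), and the groups overlapped. UBE2C, which supplies ubiquitin to that complex, was at -0.17 (SE 0.20).

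The centromere and kinetochore genes held the widest spread of estimates, from -0.96 to -0.08. CENPH, a subunit of the inner kinetochore network bound to centromeric chromatin, stood at 8.30, 5.04 and 4.09 CPM without a guide, 2.17 and 2.62 CPM with guide 1, and 4.02 and 3.49 CPM with guide 2. Both guide 1 libraries were the lowest of the 7, and those of guide 2 lay under the lowest control, 1 of them only just. The guide mean was 52.9% of the control mean, a log2 fold change of -0.96 (SE 0.26, 95% interval -1.51 to -0.41) that did not pass (adjusted p = 0.998, edgeR). It rested on 22 to 94 counts per library, and was -0.61 (SE 0.25) without non-targeting replicate 1 and -0.88 (SE 0.22) with the GC correction. Over its alternatives the adjusted p ran from 0.0557 to 1.00.

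NDC80, the subunit of the outer kinetochore that grips microtubules, stood at 16.1, 14.4 and 13.4 CPM without a guide and 7.98 and 9.06 CPM with guide 1, but at 14.5 and 12.5 CPM with guide 2. Guide 1 libraries were thus below the other 5, and guide 2 libraries lay around the lower controls. For the mean of both guides the estimate was -0.45 (SE 0.15). NUF2, its partner in the same complex, was at -0.18 (SE 0.29), CENPE, a kinetochore motor, at -0.19 (SE 0.19), and CENPF at -0.08 (SE 0.18).

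Spindle and motor genes had estimates from -0.32 to -0.10, with 0 of 5 at an unadjusted p under 0.05. TPX2, which activates AURKA on spindle microtubules, stood at 40.5, 41.7 and 41.2 CPM without a guide, 39.5 and 35.9 CPM with guide 1, and 42.7 and 36.0 CPM with guide 2, so its groups overlapped. KIF11, the motor that pushes spindle poles apart, was at -0.27 (SE 0.22) and turned to 0.14 without non-targeting replicate 1. HMMR was at -0.32 (SE 0.26), NUSAP1, which bundles microtubules near chromosomes, at -0.22 (SE 0.13), and KIF2C, a microtubule depolymerase, at -0.18 (SE 0.16).

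Genes of the midzone and cytokinesis had estimates from -0.47 to 0.05. KIF23, a motor of the centralspindlin complex that organises the midzone, stood at 14.1, 12.2 and 11.2 CPM without a guide, 10.5 and 11.5 CPM with guide 1, and 9.44 and 6.61 CPM with guide 2. It was lowest with guide 2, and guide 1 replicate 2 overlapped the controls. PRC1, which cross-links midzone microtubules, stood at 36.2, 42.0 and 38.2 CPM without a guide, 44.8 and 35.9 CPM with guide 1, and 41.2 and 38.3 CPM with guide 2, an estimate of 0.05 (SE 0.12). ECT2, which activates RhoA at the cleavage site, was at -0.47 (SE 0.26), BIRC5 (survivin) at -0.34 (SE 0.20), KIF20A at -0.25 (SE 0.15) and ANLN (anillin) at -0.24 (SE 0.19).

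Of the chromosome structure genes, TOP2A, which untangles DNA before chromosomes part, stood at 51.0, 41.2 and 44.3 CPM without a guide, 39.3 and 39.4 CPM with guide 1, and 45.9 and 36.7 CPM with guide 2. Guide 2 overlapped the controls and the estimate was -0.17 (SE 0.12). MKI67 stood at 18.3, 19.2 and 17.8 CPM without a guide, 19.9 and 21.02 CPM with guide 1, and 17.95 and 17.4 CPM with guide 2. Both guide 1 libraries lay above all controls, and both guide 2 libraries lay below those of guide 1. For both guides this was an estimate of 0.05 (SE 0.12, 95% interval -0.22 to 0.31). MKI67 and PRC1 were the 2 members with an estimate above 0.

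**Figure D3:**
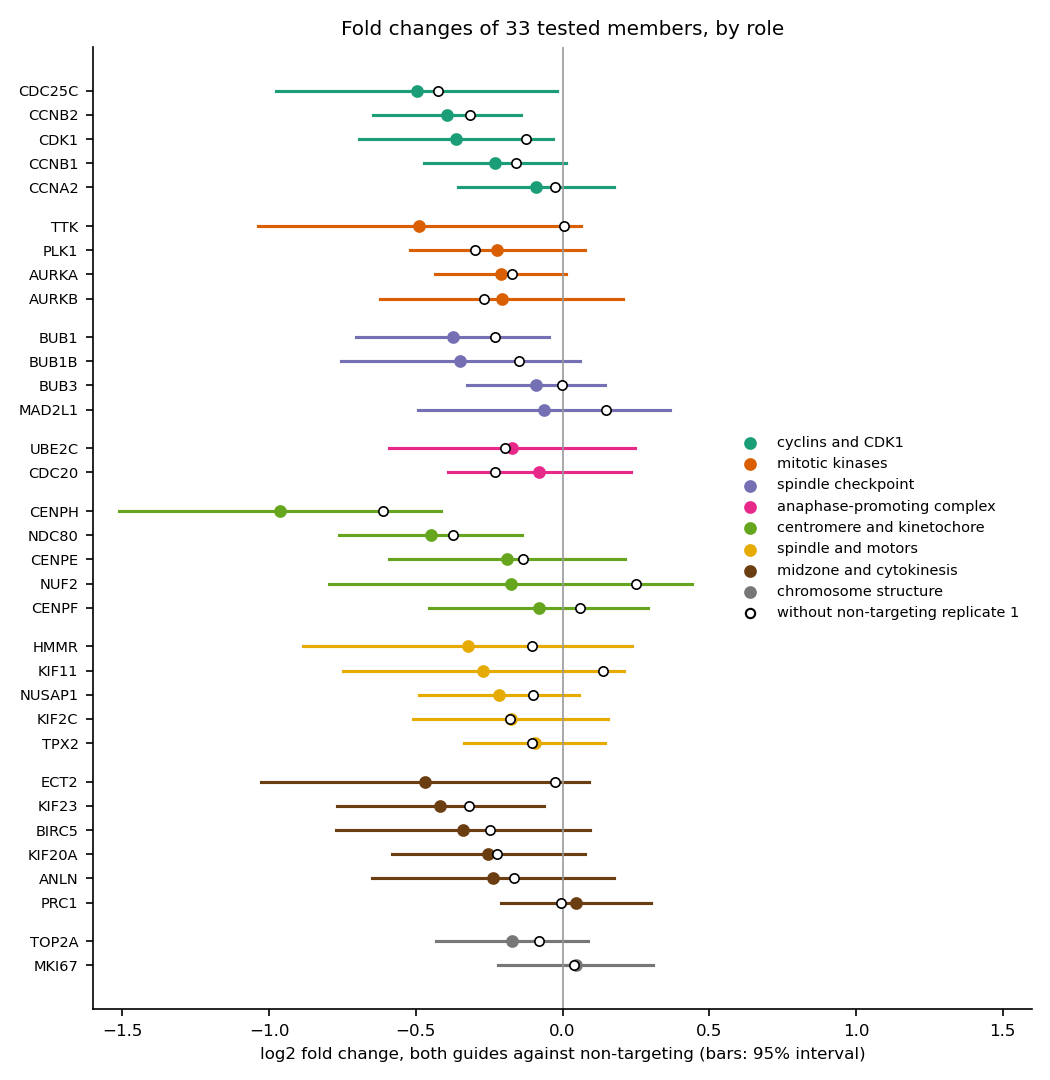
Log2 fold changes of the 33 tested members for both guides against non-targeting (horizontal axis) with 95% intervals from the edgeR fit, grouped and coloured by role; open circles are the estimates without non-targeting replicate 1. CENPH lies farthest to the left at -0.96, and TTK and KIF11 cross to the right of 0 without that library.

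**Figure D4:**
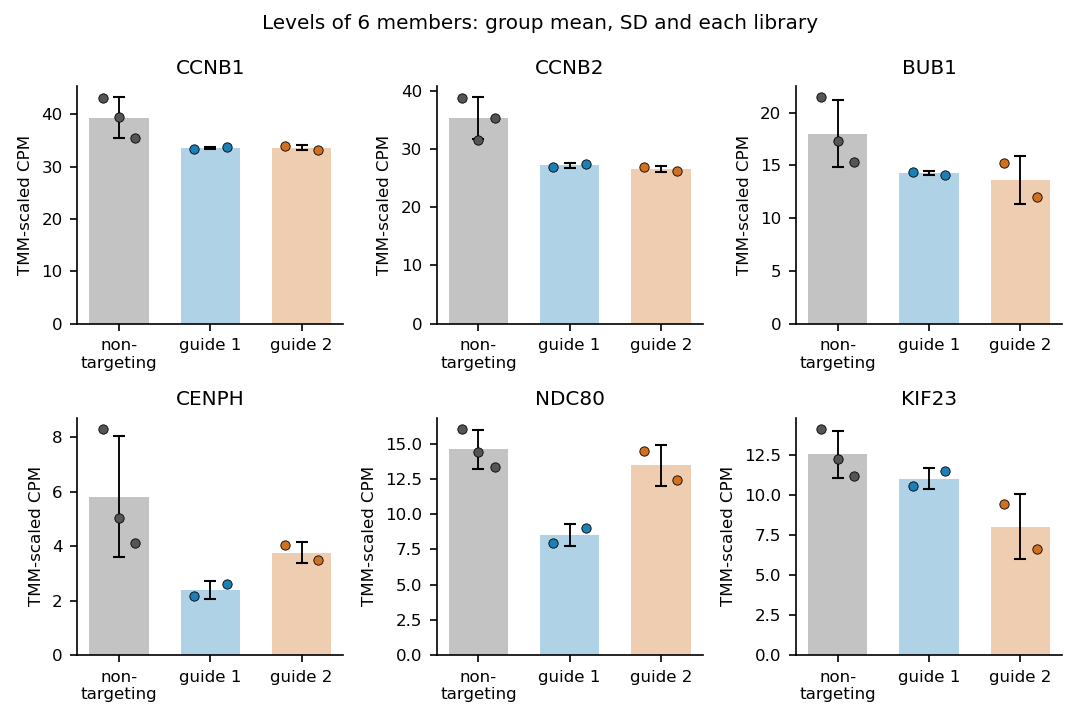
TMM-scaled CPM of 6 members in the non-targeting (3 libraries), guide 1 (2) and guide 2 (2) groups; the bar gives the mean, its whisker the SD, and each point a library. CCNB2 lies between 26.1 and 27.5 CPM in all 4 guide libraries and between 31.6 and 38.9 CPM in the controls, while NDC80 is at 7.98 and 9.06 CPM with guide 1 and at 12.5 CPM or above elsewhere.

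Each guide was then set against the same 3 controls. With guide 1, 0 members were called, where 0.0294% of all tested genes were. An unadjusted p under 0.05 was reached by 5 members, or 15.2%, against 4.78% of all tested genes, of which 2.81% were lower and 1.97% higher. All 5 members were lower: NDC80, CENPH, CCNB2, CDK1 and AURKA. DESeq2 called 0 members and gave 5 at that threshold, against 3.07% of all tested genes. Of 33 members, 31 had estimates below 0, against 51.5% of all tested genes, and the median was -0.21, which was -0.14 with the GC correction and -0.09 without non-targeting replicate 1. Both guide 1 libraries lay below all controls for 12 members, or 36.4%, against 10.3% of all tested genes. For MKI67 both lay above all controls, an order that was not counted over all tested genes. NDC80 had the smallest p of the members, at -0.78 (SE 0.18, 95% interval -1.17 to -0.39, adjusted p = 0.707, edgeR). It was called without non-targeting replicate 1, at -0.71 (SE 0.17, adjusted p = 0.0426, edgeR), where 0.584% of all tested genes were called. With the GC correction added it was called again (adjusted p = 0.0294, edgeR), where 0.752% of all tested genes were. CENPH was at -1.29 (SE 0.33, adjusted p = 0.877, edgeR). It was called when genes with low counts were not filtered out (adjusted p = 0.0194, edgeR), where 0.101% of all genes then tested were.

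With guide 2, 0 members were called, where 0.00979% of all tested genes were. An unadjusted p under 0.05 was reached by 5 members, or 15.2%, against 2.75% of all tested genes, of which 1.17% were lower and 1.59% higher. All 5 members were lower: KIF23, CCNB2, BIRC5, BUB1 and PLK1. DESeq2 called 0 members and gave 2, or 6.06%, at that threshold, against 1.4% of all tested genes. Of 33 members, 29 had estimates below 0, against 55.3% of all tested genes, and the median was -0.23, which was -0.16 with the GC correction and -0.07 without non-targeting replicate 1. KIF23 was at -0.64 (SE 0.20, 95% interval -1.08 to -0.21). BIRC5, a subunit of the chromosomal passenger complex, stood at 6.36, 4.50 and 6.36 CPM in the controls, 5.12 and 5.51 CPM with guide 1, and 4.21 and 3.49 CPM with guide 2, an estimate of -0.57 (SE 0.25) with guide 2. Both guide 2 libraries lay below all controls for 11 members, or 33.3%, against 6.86% of all tested genes. Guide 2 replicate 2 had the lowest CPM of the 7 libraries for 14 of 33 members, against 12% of all tested genes. Without it, guide 2 is a single library, which is assumed to vary like the other groups. Then 0 members had an unadjusted p under 0.05 with guide 2, against 2% of all tested genes, 23 of 33 were below 0 and the median was -0.13.

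The guides shared the 3 controls, so their estimates are given side by side and likeness between them is not read as a result. The centromere and kinetochore genes were at -1.29 (CENPH), -0.78 (NDC80), -0.44 (CENPE), -0.40 (NUF2) and -0.17 (CENPF) with guide 1, and at -0.64, -0.12, 0.06, 0.04 and 0.01 in the same order with guide 2. The midzone and cytokinesis genes were at -0.11 (BIRC5), 0.06 (PRC1), -0.11 (KIF20A), -0.19 (KIF23), -0.12 (ANLN) and -0.36 (ECT2) with guide 1, and at -0.57, 0.04, -0.40, -0.64, -0.36 and -0.58 with guide 2.

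**Figure D5:**
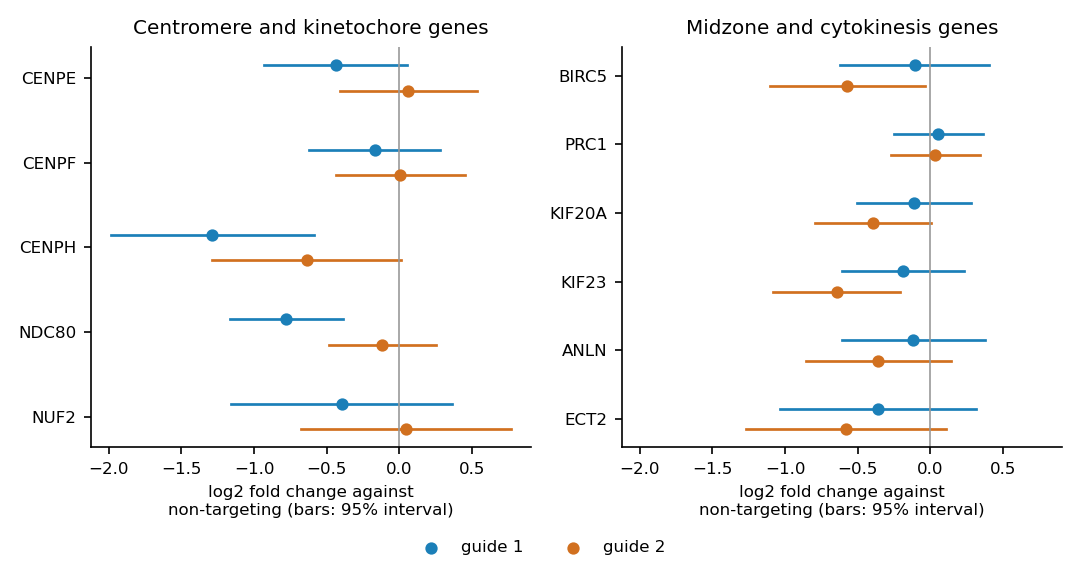
Log2 fold changes against the same 3 non-targeting libraries with guide 1 and guide 2 (horizontal axis, 95% intervals from the edgeR fit) for 5 centromere and kinetochore genes and 6 midzone and cytokinesis genes. NDC80 lies at -0.78 with guide 1 and -0.12 with guide 2, and KIF23 at -0.19 and -0.64.

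Tested directly, guide 2 against guide 1 gave 0 called members, where 0% of all tested genes were called. DESeq2 also called 0 members. NDC80 was the 1 member with an unadjusted p under 0.05, against 2.86% of all tested genes, of which 1.27% were lower and 1.59% higher. It was 0.66 higher with guide 2 on the log2 scale (SE 0.20, 95% interval 0.24 to 1.08, adjusted p = 0.983, edgeR). CENPH was 0.65 higher with guide 2 (95% interval -0.14 to 1.43), and KIF23 0.46 lower, with an estimate of -0.46 (95% interval -0.93 to 0.02). All 5 tested centromere and kinetochore genes had estimates above 0 and all 6 midzone and cytokinesis genes below 0. Their medians were 0.50 and -0.26, but neither was tested as a group. They were the role groups, out of 8, with the highest and the lowest median, and the others had medians from -0.18 to 0.089. The guide libraries also differed in GC trend. The rho was 0.41 and 0.28 for guide 1, and 0.083 and -0.31 for guide 2. With the GC correction the kinetochore estimates ran from 0.055 to 0.56, against 0.18 to 0.66 before it. The midzone estimates then ran from -0.56 to -0.038, against -0.46 to -0.020. The part of GC content in this contrast was not tested. Of 33 other kinetochore and centromere genes, 21 were above 0, with a median of 0.13. Of 36 other spindle, centrosome and cytokinesis genes, 16 were below 0 and 20 above, with a median of 0.026. That list did not repeat the level of the midzone genes. The midzone genes had a median deviation from their own means of -0.50 in guide 2 replicate 2 and of -0.03 in guide 2 replicate 1, so the 2 libraries of guide 2 did not show the same level. Over all 33 members the median was -0.00, with 17 below and 16 above 0, against 49.7% of all tested genes below 0. The median was -0.059 with the GC correction and 0.0024 without non-targeting replicate 1, where 7 members, or 21.2%, reached an unadjusted p under 0.05, against 13% of all tested genes.

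Other genes of the same machinery were read from 6 lists. Of 142 genes, 136 were tested, 0 were called in either direction for both guides, 102 (75%) were below 0 and 34 above, against 53.9% of all tested genes below 0, and the median was -0.12. An unadjusted p under 0.05 was reached by 10, or 7.35%, all lower, against 4.19% of all tested genes. These values moved with non-targeting replicate 1, where the median gene lay 0.19 above its own mean, against -0.078 to 0.018 in the other 6 libraries. Without that library the median was -0.038 and 84 of 136 were below 0, against 49.8% of all tested genes. That threshold was then reached by 18, or 13.2%, against 10.5% of all tested genes. The 1 gene then called was RACGAP1, where 0.524% of all tested genes were called. With the GC correction the median was -0.076 and 92 were below 0, against 51.2% of all tested genes. With both changes the median was -0.064 and 92 were below 0, against 51.5% of all tested genes. RACGAP1 was again called there, where 0.475% of all tested genes were. Condensin and cohesin genes, whose products compact chromosomes and hold sister chromatids together, had 17 of 19 below 0 and a median of -0.17 (-0.10 without non-targeting replicate 1), with NCAPH at -0.41 (SE 0.17), CDCA5, which encodes sororin, at -0.44 (SE 0.20) and NCAPG at -0.36 (SE 0.17). Of 36 other spindle, centrosome and cytokinesis genes 29 were below 0, with a median of -0.22 (-0.081 without that library). RACGAP1, the centralspindlin partner of KIF23, was at -0.33 (SE 0.11), from a mean of 45.2 CPM without to 36.0 CPM with a guide, DLGAP5 at -0.38 (SE 0.14), and KIFC1, a minus-end motor, at -0.44 (SE 0.16).

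Among 33 other kinetochore and centromere genes 26 were below 0, with a median of -0.12, which was -0.011, with 18 below 0, without non-targeting replicate 1. ZWILCH and ZWINT, which belong to and help recruit the complex that brings dynein to kinetochores, were at -0.52 (SE 0.20) and -0.38 (SE 0.18), and CENPN at -0.29 (SE 0.18). The other subunits of the NDC80 complex did not repeat the level of NDC80 evenly: with guide 1, SPC24 was at -0.05 and SPC25, at 1.39 CPM in the controls, at -0.70, and neither was called. Subunits of the anaphase-promoting complex and its partners, which resting cells use too, were balanced, with 8 of 20 below 0 and a median of 0.02; CDC27 was at -0.15, ANAPC7 at 0.11 and CDC26 at 0.17. For entry control and mitotic transcription genes 14 of 18 were below 0 and the median was -0.11 (-0.043 without non-targeting replicate 1), with CCNF at -0.34 (SE 0.15), PKMYT1, a kinase that restrains CDK1, at -0.36 (SE 0.22) and LIN52, a subunit of MuvB, at -0.23 (SE 0.15).

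Genes of DNA replication and S phase, the step before G2, had a median of -0.20, with 28 of 36 (77.8%) below 0, 0 called and 5, or 13.9%, at an unadjusted p under 0.05, against 53.9% and 4.19% of all tested genes. Without non-targeting replicate 1 the median was -0.13, with 31 below 0 and 7, or 19.4%, at that threshold, against 49.8% and 10.5% of all tested genes. With the GC correction it was -0.15, and with both changes RRM2 was called, where 0.475% of all tested genes were. RRM2 was at -0.31 (SE 0.10), TYMS at -0.50 (SE 0.17) and MCM4 at -0.30 (SE 0.11). No difference between these genes and the mitotic genes was tested.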

How the data were processed

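RNA from 7 HUDEP-2 libraries was made into Smart-seq2 libraries with Nextera indexing, per the labels' protocols. The table the authors deposited holds whole-number counts of reads, 1 row for each gene symbol. Per the submitters' processing notes, the aligner was STAR and the build GRCh37 (hg19). For the counter, the annotation and the strand setting, no name is given in the sources used here. This chemistry does not mark strand, so reads of overlapping genes cannot be told apart. In GENCODE v29, 14 members share exon bases with another gene, 11 of them with one on the opposite strand. The 7 members with a named pseudogene are CCNB2, AURKA, BUB1, BUB3, CDC20, UBE2C and MKI67. No molecular identifiers were used.

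Tests used edgeR 4.0.16 (R 4.3.3). Its filterByExpr, at a minimum count of 10, kept 10212 genes. After TMM scaling, all 7 libraries entered 1 quasi-likelihood fit of the 3 groups, with 4 residual degrees of freedom. P-values are two-sided, with Benjamini-Hochberg adjustment over all tested genes and a threshold of 0.05. Of the tested members, 13 had a mean under 100 counts. Levels are CPM, and log2 levels used a prior count of 2. The GC correction removed from each library a smooth trend (lowess, span 0.5) on the median GC content of GENCODE v29 transcripts, matched by symbol for all members and 96.2% of tested genes. Alternatives were DESeq2 1.42.0, other scalings, no filter, a replicate block and leaving out each library. The fits were also run on simulated data with known changes, all larger than the median difference of the members. That run cannot tell whether differences as small as this median would be called. All members are named, with each library's level for those at an unadjusted p under 0.05 in a comparison and the most abundant of each role. Up to 3 genes of each other list with a mean of at least 5 CPM are named by smallest p. SPC24 and SPC25 were named outside that rule, as partners of NDC80, after their values were seen. The members and lists were chosen with earlier results of these data known.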

Additional observations from a re-analysis of the deposited data

How the results depend on the processing

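Over 15 alternatives, the number of members called stayed at 0 for both guides, for guide 2 and for guide 2 against guide 1. For guide 1 it was 1 without a filter on low counts (CENPH), 1 without non-targeting replicate 1 (NDC80), in a range of 0 to 1 over libraries left out, and 1 with the GC content correction and without that library (NDC80). The last alternative was chosen after seeing the data. Over all tested genes, calls for both guides went from 2 to 10 with GC correction and to 53 without non-targeting replicate 1. TMCC2 was called under each alternative, from -1.94 to -1.84 with a library left out.

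The number of members at an unadjusted p under 0.05 moved with the libraries: 3 to 12 for both guides, 2 to 7 for guide 1, 0 to 8 for guide 2 and 1 to 7 for guide 2 against guide 1. The share of all tested genes moved too, for both guides from 2.67% to 10.5%. The low values for both guides, guide 1 and guide 2 came from fits without a guide library. Such a fit leaves 1 library in that group, which is assumed to vary like the other groups. For both guides the high value, 12 (36.4%), came without non-targeting replicate 2, against 8.13% of all tested genes. For guide 1 the high value, 7 (21.2%), came without non-targeting replicate 2 or 3, against 9.58% and 6.36% of all tested genes. For guide 2 the high value, 8 (24.2%), came without non-targeting replicate 2, against 3.95% of all tested genes. Between guides it was 7 (21.2%, against 13% of all tested genes) without non-targeting replicate 1. With 1 control left out, the share of all tested genes ran from 6.36% to 9.58% for guide 1 and from 2.64% to 14.9% for guide 2. Between guides it ran from 2.67% to 13%. For guide 1 the number of members was 3 with the block and GC correction together, against 7.01% of all tested genes. For guide 2 the number was 2 with total counts, 8 without a filter, 2 with DESeq2, 8 with GC correction and 9 with the block and GC correction. The shares of all tested genes were 3.01%, 2.59%, 1.4%, 6.06% and 4.76% in that order. Between guides the number was 2 with total counts, without a filter, with GC correction, with that and the block, and with GC correction without non-targeting replicate 1. Here the shares of all tested genes were 2.96%, 2.96%, 5.04%, 4.2% and 8.81% in that order. The median for guide 2 ran from -0.33 to -0.073 with a library left out, the latter without non-targeting replicate 1. The cause was not tested.

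For both guides, 9 of 33 members changed sign under some alternative, none of them called. Without 1 library, the ranges were -0.71 to 0.0056 for TTK, -0.18 to 0.15 for MAD2L1, -0.23 to 0.038 for CDC20, -0.20 to 0.061 for CENPF, -0.46 to 0.25 for NUF2, -0.46 to 0.14 for KIF11 and -0.040 to 0.12 for PRC1. With GC correction, MAD2L1 was at 0.051 and CENPF at 0.018. With the block as well, MAD2L1 was at 0.062, CENPE at 0.094, CENPF at 0.024, NUF2 at 0.036 and ANLN at 0.074. With GC correction and without non-targeting replicate 1, MAD2L1 was at 0.076, NUF2 at 0.18, KIF11 at 0.056 and PRC1 at -0.020.

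The groups share replicate numbers, but no label ties them to a batch, and same-numbered libraries did not deviate together (correlations across genes of -0.19 to 0.03). With a replicate block, 0 members were called in each comparison. For both guides, guide 1, guide 2 and guide 2 against guide 1, 8, 5, 5 and 1 had an unadjusted p under 0.05. The shares of all tested genes were 3.45%, 4.44%, 2.02% and 1.98% in that order. Members such as CENPH and CDC25C rest on 22 to 94 counts per library, so only large differences were detectable there.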

Other observations

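Cell cycle inhibitors and D-type cyclins were read together from a separate list of 11 genes, of which 10 were tested. The counts below thus do not describe the inhibitors alone. None was called for both guides (edgeR), 8 were below 0, 0 had an unadjusted p under 0.05, and the median was -0.08 on the log2 scale. Of all tested genes, 0.0196% were called, 53.9% were below 0 and 4.19% had an unadjusted p under 0.05. RB1, the retinoblastoma gene, stood at 135, 72.6 and 76.5 CPM in the non-targeting libraries, 69.2 and 73.3 CPM with guide 1, and 68.8 and 87.9 CPM with guide 2. Its fold change of -0.34 (SE 0.18) thus had non-targeting replicate 1 far above the other 6 libraries, and RB1 transcripts are AT-rich, at 37.8% GC. CDKN2B, an inhibitor of CDK4 and CDK6, stood at 65.3, 47.3 and 54.2 CPM without a guide, 45.2 and 43.6 CPM with guide 1, and 52.1 and 56.3 CPM with guide 2, an estimate of -0.18 (SE 0.12). CDKN1B, which encodes p27, was at -0.22 (SE 0.15), with 45.5 CPM in non-targeting replicate 1 and 26.7 to 36.2 CPM in the other libraries.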
